A study of Mus musculus with 15 samples.

Results

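Nras, Braf, Map2k1 and Nf1 are core genes of the Ras and MAP kinase pathway, and their DNA level was read in liver tumours and livers of mice by array comparative genomic hybridisation (aCGH). In aCGH, tissue DNA and reference DNA carry different dyes and bind together to the probes of a slide, and the log2 ratio of tissue over reference is the DNA level used here. The genes were taken as all probes whose gene name on the array equalled 1 of the 4 names. All 4 had probes, 15 in all of 40726 autosomal probes, and they stand for 4 of 19948 autosomal gene names. Nras had 1 probe, Braf 7, Map2k1 3 and Nf1 4.

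The study profiled tumours and unaffected livers of mice in which Albumin-Cre, active in hepatocytes, recombines floxed alleles of Mad2 (Mad2l1, a spindle checkpoint gene) and p53 (Trp53). The arrays covered 5 hepatocellular carcinomas (HCC) and 3 unaffected livers, 8 tissues in all. Every tissue had the same strain label, with floxed Mad2, floxed p53 and AlbuminCre. The study describes the background as a mix of strains, and attributes some apparent copy changes on its arrays to that mix. Mouse 3151, a female of 16.4 months with the genotype Mad2(f/f) p53(f/+), gave HCC 1, HCC 2 and a liver. Mouse 3760, a male of 13.8 months with Mad2(f/f) p53(f/f), gave HCC 2 and a liver, and mouse 4033, a male of 13.9 months with Mad2(f/f) p53(f/f), gave HCC 1, HCC 2 and a liver. DNA of normal liver from the opposite sex of the same background strain served as the reference, wild type per the study's methods. The unaffected livers thus carried the same floxed alleles and Cre as the tumours of their mouse. HCC numbers are those the labels give within a mouse.

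The Ras pathway carries growth signals from receptors at the cell surface to the nucleus. Nras is a small GTPase that is active when bound to GTP, and Nf1 encodes neurofibromin, a GTPase activating protein that returns Ras to its inactive form. Active Ras recruits Raf kinases such as Braf, Braf phosphorylates the kinase encoded by Map2k1 (MEK), and MEK phosphorylates ERK, which acts on transcription factors. Mutations that activate Ras or Braf are well known in chemically induced liver tumours of mice. An array of this kind measures how much DNA of a gene is present, and shows neither such mutations nor activity of the pathway.

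The libraries were checked over the whole array first. Over the X chromosome, where liver and reference of the opposite sex differ by 1 copy, the mean level of the unaffected livers was 0.89 in absolute log2. All 8 tissues had the sign of their labelled sex. The X median of the HCC was 0.32 and 0.35 in mouse 3151, -1.10 in mouse 3760, and -0.67 and -1.35 in mouse 4033. Their livers were at 0.94, -0.88 and -0.94. The spread of a single probe, estimated from neighbouring probes, ranged from 0.0835 in the liver of mouse 4033 to 0.203 in HCC 2 of mouse 3760. The latter was the only tissue with a single array. The spread was 0.172 to 0.186 in the tissues scanned on the second of 2 days. In those of the first day with 2 arrays it was 0.0835 to 0.109. The 1 Trp53 probe lay between -2.07 and -0.19 in the HCC and between -0.88 and -0.07 in the livers. The 1 Mad2l1 probe ranged from -1.22 to 0.59 in the HCC and from 0.01 to 0.69 in the livers. Whether these probes lie within the floxed parts is not given in the sources used here, so they do not check the deletion. In DNA of a whole tissue, the share of tumour cells and the number of copies per cell cannot be told apart.

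The probe sequences that the results turn on are given 5′ to 3′, as the array files hold them, with the longest unbroken stretch of A and T in capitals. They comprise the single Nras probe, the Braf probe that varied most over the tissues and the brightest one, all 3 Map2k1 probes because they disagreed, and the Nf1 probes that were highest in HCC 2 of mouse 4033 and in HCC 2 of mouse 3760.
Nras A_53_P126351: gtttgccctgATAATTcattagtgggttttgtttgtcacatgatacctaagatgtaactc
Braf A_53_P139027: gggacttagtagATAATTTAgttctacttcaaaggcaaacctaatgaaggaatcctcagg
Braf A_53_P129928: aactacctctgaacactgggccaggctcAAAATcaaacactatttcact
Map2k1 A_53_P113371: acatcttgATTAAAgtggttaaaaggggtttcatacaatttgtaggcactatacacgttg
Map2k1 A_53_P172455: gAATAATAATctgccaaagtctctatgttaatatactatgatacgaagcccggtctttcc
Map2k1 A_53_P149462: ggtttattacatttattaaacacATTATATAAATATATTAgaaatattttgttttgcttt
Nf1 A_53_P112004: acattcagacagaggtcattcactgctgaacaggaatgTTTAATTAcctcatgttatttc
Nf1 A_53_P177193: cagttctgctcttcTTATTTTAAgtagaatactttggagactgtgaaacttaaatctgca
The Nras probe lies at chr3:102869795-102869854, the Braf probes shown at chr6:39661264-39661323 and chr6:39596718-39596766, and the Nf1 probes shown at chr11:79340324-79340383 and chr11:79343909-79343968. The Map2k1 probes lie at chr9:64033644-64033703, chr9:64084108-64084167 and chr9:64095736-64095795. Positions are those of the files, which do not name their genome build, so exons and introns are not stated here.

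The third Map2k1 probe stood apart from the other 14 in its sequence. Only 15% of its bases were G or C and its longest A and T stretch was 17 bases, against 30.0% to 42.9% and at most 10 bases in the other probes. The median over all autosomal probes was 36.7%, and 0.0442% of them had a G and C share at or under 15%. Its median signal over background was 1.83 in green and 1.80 in red, the lowest of the 15 probes, and it was not well above background on 6 of 15 arrays. No other probe of the 4 genes missed that mark on any array. The brightest, Braf probe A_53_P129928, reached 20.3 in green and 24.7 in red.

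Nras, the GTPase of the set, lay below the level of all unaffected livers in 4 of 5 HCC. Its level was 0.15 in HCC 1 and -0.47 in HCC 2 of mouse 3151, -0.27 in HCC 2 of mouse 3760, -0.30 in HCC 1 and -0.31 in HCC 2 of mouse 4033. The unaffected livers were at 0.21 in mouse 3151, 0.09 in mouse 3760 and 0.00056 in mouse 4033. HCC 1 of mouse 3151 thus lay within the range of the livers, and the other HCC lay below it. Over all autosomal genes, 17% had at least 4 of 5 HCC below all livers. Every HCC was below the liver of its own mouse, by -0.05 in HCC 1 and -0.68 in HCC 2 of mouse 3151, -0.36 in mouse 3760, and -0.30 and -0.31 in mouse 4033. How many of all genes had this was not counted. The value of HCC 1 of mouse 3151 was smaller than the spread of a single probe in that tissue, 0.172.

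The mean Nras level was -0.24 ± 0.23 (SD, n = 5) in the HCC and 0.10 ± 0.10 (SD, n = 3) in the livers. The difference of -0.34 had a 95% interval from -0.66 to -0.02 and an SE of 0.15. With limma, the Benjamini-Hochberg adjusted p over all autosomal genes was 0.58, so the difference was not called, and the exact permutation test over 56 splits, two-sided, gave p = 0.107. It was -0.33 among the tissues scanned on the first day and -0.42 among those of the second day. Within the slides that held an HCC and a liver it was -0.36, -0.30 and -0.52. The last of these set HCC 2 of mouse 4033 against the liver of mouse 3151, a different animal. Both HCC of mouse 3151 shared a slide without a liver, and the only liver scanned on the second day was that of mouse 3151.

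Chromosome 3 had the same pattern as Nras. Its median level was 0.08 and -0.33 in HCC 1 and HCC 2 of mouse 3151, -0.25 in HCC 2 of mouse 3760, and -0.35 and -0.36 in HCC 1 and HCC 2 of mouse 4033. In the livers it lay between 0.0056 and 0.02. Relative to the chromosome median, Nras lay between -0.14 and 0.07 in the HCC and between -0.0052 and 0.20 in the livers, and the groups overlapped. On this scale the difference was -0.09 ± 0.08 (SE), with a limma adjusted p of 0.999.

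On the upper side Nras was flanked by probes of Ampd1, which encodes an AMP deaminase, and BC156060, 33.7 kb and 48.7 kb away. They read -0.49 and -0.51 in HCC 2 of mouse 4033, and -0.43 and -0.39 in HCC 1 of that mouse. In HCC 2 of mouse 3151, where Nras was lowest, they read -0.26 and -0.41. In the liver of mouse 3151, where Nras was at 0.21, they read -0.22 and 0.05. In that liver the Nras probe itself read -0.0028 with forward dyes and 0.41 with swapped dyes. In HCC 2 of mouse 4033 it read -0.67 and 0.04, so its 2 readings lay farther apart there than in any other tissue, while within 1 Mb the median of 63 other probes was -0.44.

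**Figure D1:**
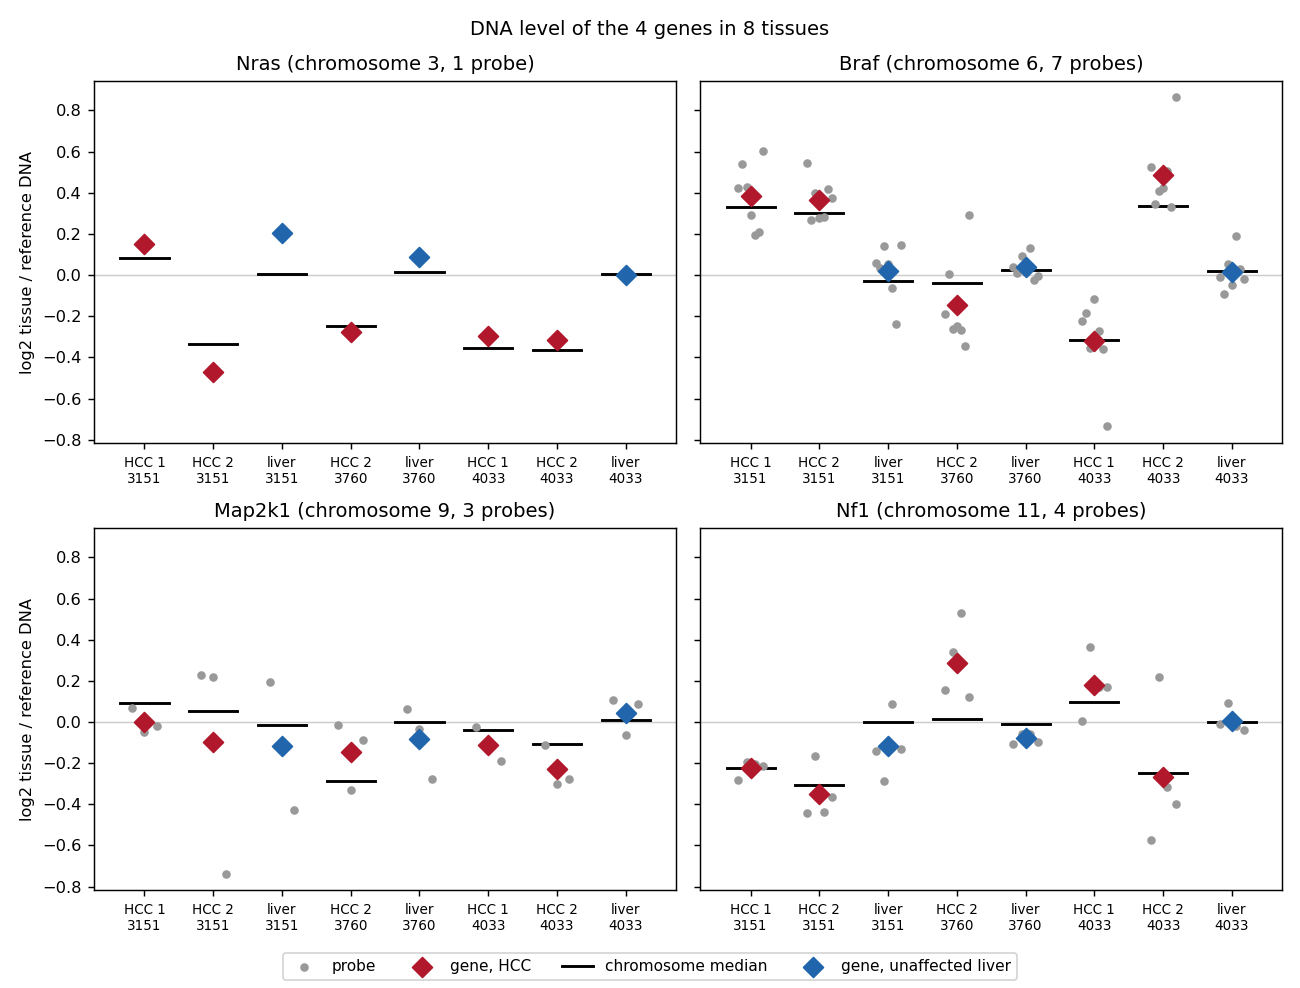
DNA level of Nras, Braf, Map2k1 and Nf1 (vertical axis, log2 tissue over reference) in the 8 tissues (horizontal axis, with the mouse number). Grey points are probes, diamonds are gene means (red HCC, blue unaffected liver) and black lines are the medians of the gene's chromosome. Braf lies at 0.37 to 0.49 in 3 HCC and at -0.32 in HCC 1 of mouse 4033, close to the chromosome line each time.

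Nf1, the inhibitor of Ras, lay below its own liver in 3 HCC and above it in the other 2. Its level was -0.22 in HCC 1 and -0.35 in HCC 2 of mouse 3151, 0.29 in HCC 2 of mouse 3760, 0.18 in HCC 1 and -0.27 in HCC 2 of mouse 4033. The livers were at -0.12, -0.08 and 0.0050 in mice 3151, 3760 and 4033. The HCC lay on both sides of the livers, a separation that was not counted over all genes. All 4 Nf1 probes were below 0 in both HCC of mouse 3151, and all 4 were above 0 in HCC 2 of mouse 3760 and HCC 1 of mouse 4033. In the livers of mice 3151, 3760 and 4033, 3, 4 and 3 of the probes were below 0.

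The Nf1 means were -0.08 ± 0.29 (SD, n = 5) in the HCC and -0.06 ± 0.06 (SD, n = 3) in the livers. The difference of -0.01 had a 95% interval from -0.35 to 0.33 and a limma adjusted p of 0.985. It was 0.27 on the first scan day and -0.16 on the second. The HCC of opposite sign thus cancelled in the mean. Those above 0 were both scanned on the first day and those below 0 all on the second, so tumour and scan day cannot be told apart.

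Chromosome 11, which also carries Trp53, matched Nf1 in 4 of the 5 HCC. Its median was -0.22 and -0.31 in HCC 1 and HCC 2 of mouse 3151, 0.10 in HCC 1 and -0.25 in HCC 2 of mouse 4033, and in these tumours Nf1 departed from it by 0.08 at most. The exception was HCC 2 of mouse 3760, where the chromosome was at 0.01 and Nf1 at 0.29. There the 4 Nf1 probes ranged from 0.12 to 0.53.

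The flanking probes of Nf1 were raised in that tumour as well. They were AK039395 and a probe with no gene name, 205 kb and 199 kb below the gene's probes, and a probe with no gene name and Rab11fip4 (an effector of Rab11 in vesicle traffic), 15.5 kb and 31.0 kb above. They read 0.33, 0.25, 0.25 and 0.26, and averaged 0.27. In the liver of the same mouse the 8 probes of Nf1 and its flanks were all below 0, between -0.13 and -0.01. Medians of the tumour over wider stretches were lower, 0.10 over 58 other probes within 1 Mb and 0.03 over 327 within 5 Mb. The decline was not steady. By distance from the middle of the gene's probes, negative below it, readings were 0.09 to 0.55 between 525 and 689 kb. They were 0.13 to 0.40 between -526 and -234 kb. Single probes read -0.10 at 414 kb and -0.28 at -564 kb. This tumour had a single array and the widest probe spread of the 8 tissues, and the part of either in the value was not tested.

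**Figure D2:**
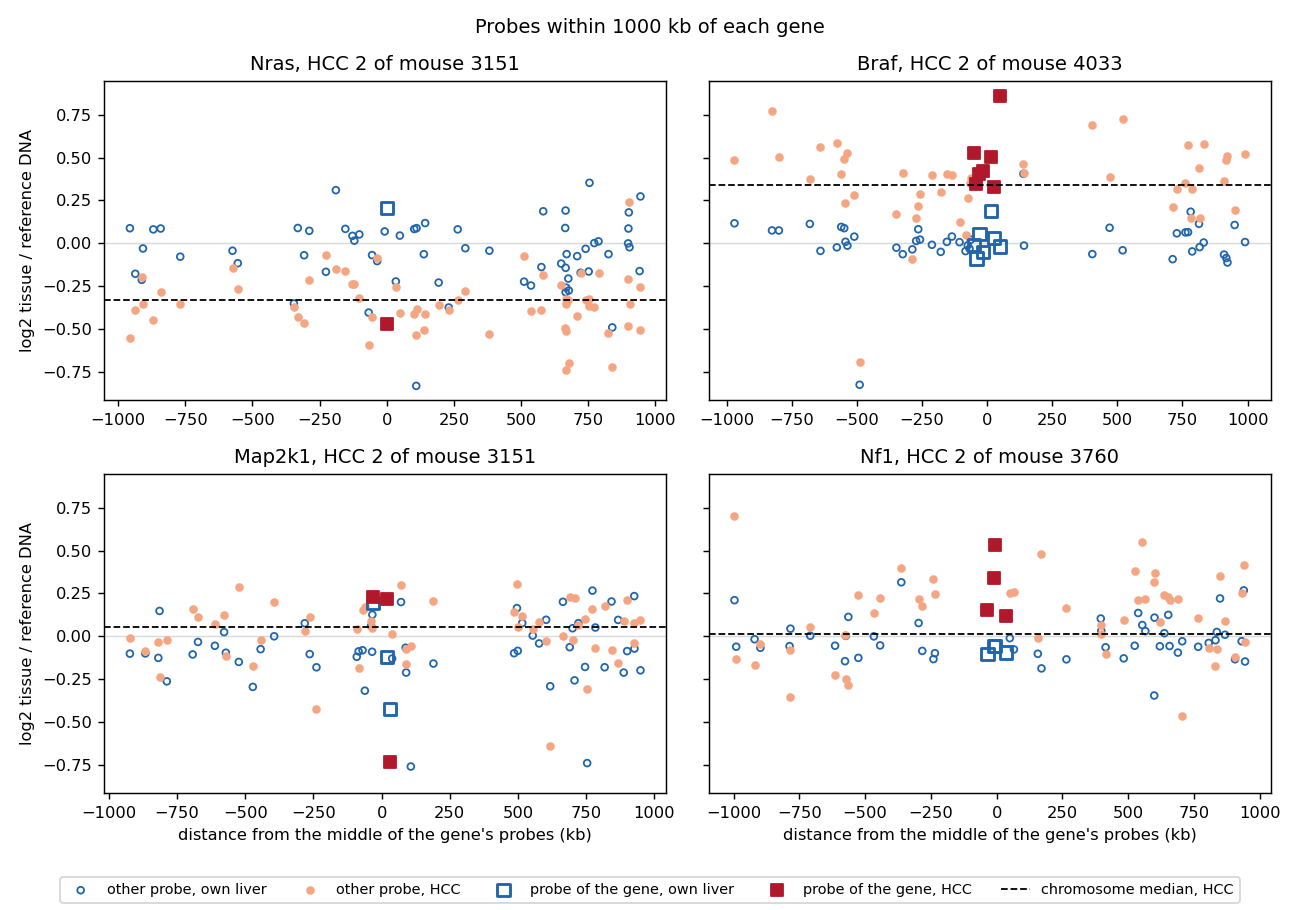
Probe levels (vertical axis, log2 tissue over reference) within 1000 kb of each gene, by distance from the middle of its probes (horizontal axis, kb), in 1 HCC per gene, named above each panel, and in the liver of the same mouse. Squares are probes of the gene, small circles other probes, filled for the HCC and open for the liver, and the dashed line is the HCC's chromosome median. The median of the other probes is 0.38 around Braf and -0.36 around Nras, the Nf1 probes at 0.12 to 0.53 lie above a chromosome median of 0.01, and 1 Map2k1 probe lies at -0.74, far below its neighbours.

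Nf1 relative to its chromosome median lay at -0.00052, -0.04, 0.27, 0.08 and -0.02 in HCC 1 and HCC 2 of mouse 3151, HCC 2 of mouse 3760, and HCC 1 and HCC 2 of mouse 4033. The livers were at -0.12, -0.07 and 0.0041. The difference was 0.12 ± 0.08 (SE), with a limma adjusted p of 0.999 and an exact permutation p of 0.179.

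Probe A_53_P112004 departed from the rest of Nf1 in HCC 2 of mouse 4033, where it read 0.22 and the other 3 read -0.57, -0.32 and -0.40. It lay 0.59 above the mean of its 2 nearest probes on either side. Its forward and dye-swap arrays gave 0.44 and -0.0032 there. In the liver of mouse 3151 its value rests on the forward array alone, because the spot of the other array carried an outlier mark. With outlier-marked spots kept, the Nf1 difference between HCC and livers was -0.07 in level and 0.06 relative to the chromosome, in place of -0.01 and 0.12. Against its 2 nearest probes on either side, some of them of Nf1, its difference between HCC and livers was 0.26 ± 0.14 (SE). The unadjusted limma p was 0.0954, the smallest of the 15 probes on this scale, and the limma adjusted p was 1.00.

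Braf, the kinase next in the pathway, had the highest level of the 4 genes. It was at 0.38 in HCC 1 and 0.37 in HCC 2 of mouse 3151, -0.15 in HCC 2 of mouse 3760, -0.32 in HCC 1 and 0.49 in HCC 2 of mouse 4033. The livers were at 0.02, 0.04 and 0.02 in mice 3151, 3760 and 4033. Thus 3 HCC lay above all livers and the other 2 lay below them, a separation that was not counted over all genes. All 7 probes were above 0 in the 3 HCC with high levels and below 0 in HCC 1 of mouse 4033. In HCC 2 of mouse 3760, 5 probes were below 0 and 2 above. In the livers of mice 3151, 3760 and 4033, 5, 5 and 3 of the probes were above 0.

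The Braf means were 0.15 ± 0.36 (SD, n = 5) in the HCC and 0.02 ± 0.01 (SD, n = 3) in the livers. The difference of 0.13 had a 95% interval from -0.25 to 0.51 and a limma adjusted p of 0.831. It ranged from 0.05 without HCC 2 of mouse 4033 to 0.25 without HCC 1 of mouse 4033. It was -0.26 on the first scan day and 0.39 on the second, and the tissues of the second day include all 3 HCC with high Braf. Within the slides it was -0.18, -0.34 and 0.47, the last between HCC 2 of mouse 4033 and the liver of mouse 3151. With slide as a block, chosen after the values were seen, the difference turned to -0.02. Both HCC of mouse 3151, which had high Braf, were alone on their slide and added nothing to that value.

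Chromosome 6 had the same pattern as Braf. Its median was 0.33, 0.30, -0.04, -0.32 and 0.34 in the same order of HCC, and -0.03 to 0.02 in the livers. Relative to it, Braf lay between -0.10 in HCC 2 of mouse 3760 and 0.15 in HCC 2 of mouse 4033. The livers lay between -0.0045 and 0.05, within the range of the HCC. The difference on this scale was 0.01 ± 0.07 (SE), with an interval from -0.14 to 0.17 and a limma adjusted p of 0.999.

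The flanking probes of Braf were Ndufb2, which encodes a subunit of respiratory complex I, and AK028334 below it, and a pair named Mrps33, a mitochondrial ribosome protein, above it. They averaged 0.40 and 0.27 in HCC 1 and HCC 2 of mouse 3151, -0.34 in HCC 1 and 0.40 in HCC 2 of mouse 4033, and Braf departed from them by -0.02, 0.09, 0.02 and 0.08. In HCC 2 of mouse 3760 they averaged 0.11, from -0.11 to 0.47, and Braf was 0.26 lower. In the RefSeq gene table of GRCm38.p6, Ndufb2 and Mrps33 are the protein-coding neighbours of Braf.

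Probe A_53_P139027, at the upper end of Braf, was the widest in range. It read 0.60, 0.37 and 0.15 in HCC 1, HCC 2 and the liver of mouse 3151, 0.29 and -0.0033 in HCC 2 and the liver of mouse 3760, and -0.73, 0.86 and -0.02 in HCC 1, HCC 2 and the liver of mouse 4033. Its sign was that of the gene in every HCC but HCC 2 of mouse 3760. Its extremes came from dye-swap arrays. The forward and swapped readings were -0.09 and -1.37 in HCC 1 and 0.38 and 1.35 in HCC 2 of mouse 4033. Its SD over the 8 tissues was 0.478, against 0.229 to 0.310 in the other 6 Braf probes.

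Map2k1, which encodes the kinase MEK, had the smallest spread of the 4 genes over the HCC. Its level was -0.00078 in HCC 1 and -0.10 in HCC 2 of mouse 3151, -0.15 in HCC 2 of mouse 3760, -0.11 in HCC 1 and -0.23 in HCC 2 of mouse 4033. The livers were at -0.12, -0.08 and 0.04 in mice 3151, 3760 and 4033. The groups overlapped. Its mean was -0.12 ± 0.08 (SD, n = 5) in the HCC and -0.05 ± 0.08 (SD, n = 3) in the livers. The difference of -0.06 had a 95% interval from -0.33 to 0.20 and a limma adjusted p of 0.878. It was -0.11 on the first scan day and 0.0094 on the second.

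Chromosome 9 was at 0.09 and 0.05 in HCC 1 and HCC 2 of mouse 3151, -0.29 in HCC 2 of mouse 3760, and -0.04 and -0.11 in HCC 1 and HCC 2 of mouse 4033. Map2k1 lay 0.14 above it in HCC 2 of mouse 3760 and 0.15 below it in HCC 2 of mouse 3151, the widest departures of this gene. The flanking probes, named Snapc5 on the lower side and Tipin (a replication fork factor) on the upper side with an unnamed probe each, averaged -0.37 and 0.15 in these tumours. Relative to the chromosome, the difference between HCC and livers was -0.0087 ± 0.08 (SE), with a limma adjusted p of 0.999.

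The probe A_53_P149462, which is poor in G and C, set much of the Map2k1 level in mouse 3151. In HCC 2 of that mouse it read -0.74, and the other 2 probes averaged 0.22. In the liver of that mouse it read -0.43, and the others averaged 0.04. On the forward and dye-swap arrays it gave -1.87 and 0.40 in the first tissue and -1.64 and 0.79 in the second. The other 2 probes averaged 0.32 and 0.13, and 0.17 and -0.10, on the same arrays. In the 7 tissues with both orientations, each reading of A_53_P149462 departed from the mean of its pair by 0.50 on average. The other 14 probes departed by 0.0330 to 0.241, the median over all autosomal probes was 0.119, and 0.435% of them departed by at least as much as A_53_P149462.

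Without that probe, a choice made after its values were seen, Map2k1 was at 0.0088 and 0.22 in HCC 1 and HCC 2 of mouse 3151, -0.17 in HCC 2 of mouse 3760, and -0.07 and -0.21 in HCC 1 and HCC 2 of mouse 4033. The livers were then at 0.04, 0.01 and 0.02 in mice 3151, 3760 and 4033, closer together than with it. The difference between HCC and livers was -0.07, with an exact permutation p of 0.482. With only its dim spots left out it was -0.28, with a limma adjusted p of 0.649, and from the deposited log ratios it was -0.16, with an adjusted p of 0.724.

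**Figure D3:**
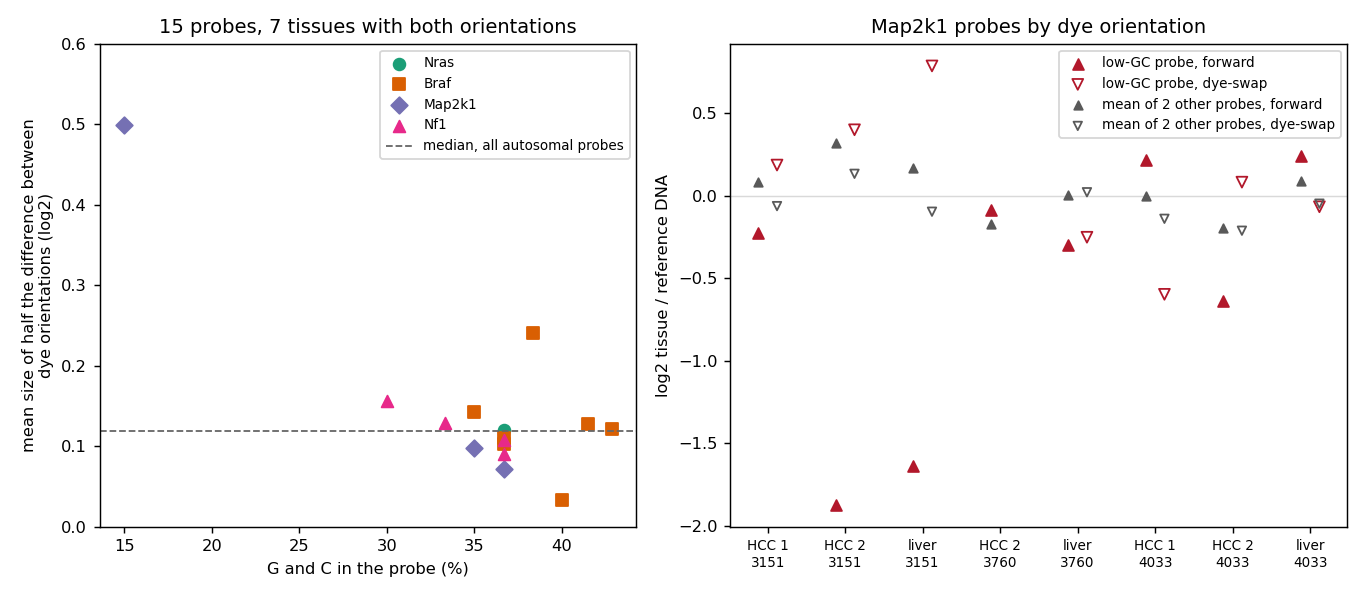
Left, share of G and C (horizontal axis, percent) of the 15 probes against the average departure of a reading from the mean of both dye orientations (vertical axis, log2) in 7 tissues, with the median of all autosomal probes as a dashed line. Right, level (log2 tissue over reference) of the low-GC Map2k1 probe A_53_P149462 and the mean of the other 2 Map2k1 probes in each tissue, with filled triangles for forward and open ones for dye-swap arrays. The low-GC probe lies at 0.50 on the left, and on the right at -1.87 and -1.64 on the forward arrays of HCC 2 and the liver of mouse 3151.

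Set against the liver of its own mouse, an HCC was scored where a gene differed by at least 0.3, the cut-off the study used for chromosomes. The 4 genes passed it in 8 of 20 pairs of gene and HCC, 4 higher and 4 lower. Over all autosomal genes 36.5% of such pairs passed, 18.5% higher and 18% lower, so the share of these genes lay near the background. Both HCC of mouse 3151 and HCC 2 of mouse 4033 were on another slide than the liver of their mouse. Braf was higher in HCC 1 and HCC 2 of mouse 3151 and HCC 2 of mouse 4033, as were 18%, 20.9% and 15.8% of all genes, and lower in HCC 1 of mouse 4033, as were 27.1%. Nras was lower in HCC 2 of mouse 3151, HCC 2 of mouse 3760 and HCC 2 of mouse 4033, as were 20.9%, 12.6% and 18.6%, and just missed the cut-off in HCC 1 of mouse 4033. Nf1 was higher in HCC 2 of mouse 3760, as were 13%, and Map2k1 passed in none. Without the tissues of mouse 3151 or those of mouse 4033, 5 pairs passed, but fewer pairs were then counted, so the number could not rise.

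After the chromosome median was taken out of each tissue, 2 of 20 pairs passed, against 11.5% over all genes, 5.7% higher and 5.84% lower. They were Nras in HCC 2 of mouse 3151, at -0.34, and Nf1 in HCC 2 of mouse 3760, at 0.34. In these tumours 10% of all genes were lower and 8.08% higher by at least 0.3. The Nras value rests in part on the liver of mouse 3151, in which Nras lay 0.20 above its chromosome.

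Over the 20 pairs, the gene's difference from its own liver had the sign of its chromosome's difference in 19, the exception being Nras in HCC 1 of mouse 3151. The gene level and the chromosome median correlated with r = 0.928 over the 20 pairs, given as a description because pairs share tumours and chromosomes. By gene over the 8 tissues, r with the own chromosome was 0.943 for Nras, 0.980 for Braf, 0.584 for Map2k1 and 0.856 for Nf1. The Map2k1 level here includes its dim low-GC probe.

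**Figure D4:**
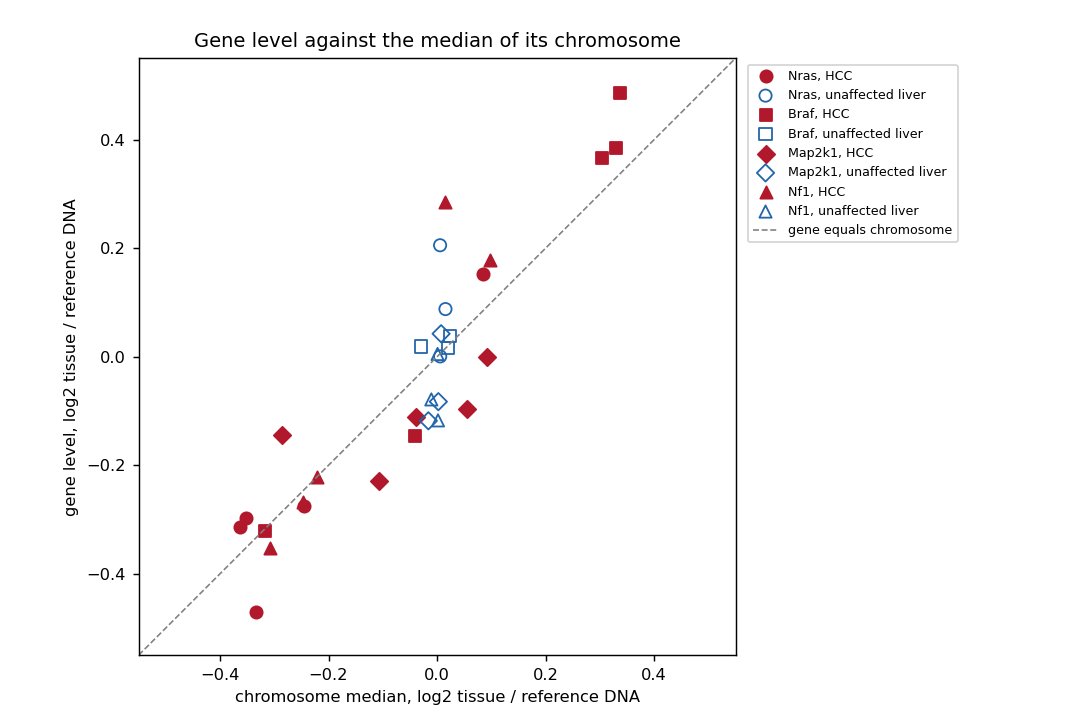
Gene level against the median of the gene's chromosome in the same tissue (both axes log2 tissue over reference), with a marker shape per gene, filled red for the 5 HCC and open blue for the 3 unaffected livers. On the dashed line a gene equals its chromosome. The HCC points run along the line from -0.47 to 0.49, and Nf1 in HCC 2 of mouse 3760 lies 0.27 above it.

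Tumours of the same mouse were compared as pairs, with no test because each is a single sample. Both HCC of mouse 3151 shared a slide and a scan day. Those of mouse 4033 were on different slides and days, so tumour, slide and day cannot be told apart there. In mouse 3151 Nras was 0.62 higher in HCC 1 than in HCC 2, and chromosome 3 was 0.42 higher. In mouse 4033 Braf was 0.81 higher in HCC 2 than in HCC 1, and chromosome 6 was 0.65 higher. Nf1 in mouse 4033 was 0.45 higher in HCC 1 than in HCC 2, and chromosome 11 was 0.34 higher. The other pairs were closer, with Braf in mouse 3151 and Nras in mouse 4033 each differing by 0.02. For comparison, the spread of a single probe was 0.172 and 0.175 in the HCC of mouse 3151 and 0.109 and 0.186 in those of mouse 4033.

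At an adjusted p under 0.05, limma called none of the 4 genes or 15 probes between HCC and livers. None of the probes was called against its flanking probes. Here these were the 2 nearest probes on either side, which can belong to the same gene, so a change of the whole gene can cancel. With probes of the same gene skipped, 0 of 40720 probes were called. The adjusted p ranged from 0.673 to 0.998 for the probes alone, and was 1.00 for all of them against the flanking probes. At an unadjusted p under 0.05 there was 1 probe, that of Nras, where 7.4% of all probes passed, and none against the flanking probes, where 1.51% passed. Of the 4 genes, Nras alone had an unadjusted limma p under 0.05, at 0.0381, where 8.12% of all autosomal genes did, and none had relative to the chromosome, where 1.55% did. Over all autosomal genes limma called 0%, with or without the chromosome median. The numbers of tissues limit the precision of these comparisons.

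Other genes of the pathway gave the same picture. Of 70 listed names, 62 had probes and 58 could be tested on autosomes, comprising GTPases, adaptors and exchange factors, inhibitors, kinases and scaffolds, and targets. Limma called 0 of the 58, and 2 had an unadjusted p under 0.05. In the HCC 24 were higher and 34 lower, with a median difference of -0.04, beside -0.0079 over all autosomal genes, of which 48.6% were higher. Relative to the chromosome their median difference was 0.0097.

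Among the positive differences were Egr1, an early response transcription factor downstream of ERK, at 0.38 ± 0.13 (SE), and Spry4, a Sprouty inhibitor of the pathway, at 0.28 ± 0.13. The limma adjusted p was 0.378 and 0.601. Egr1 was at 0.55 and 0.35 in HCC 1 and HCC 2 of mouse 3151, 0.61 in HCC 2 of mouse 3760, and 0.30 and 0.57 in HCC 1 and HCC 2 of mouse 4033. Its livers were at 0.23, 0.02 and 0.02, below all HCC, a separation in this direction that 6.06% of all autosomal genes had. Egr1 and Spry4 both lie on chromosome 18, and relative to it their differences were 0.11 and 0.0031.

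Among the negative differences were Map2k1ip1, a scaffold of MEK and ERK on chromosome 3, at -0.30 ± 0.19 (SE), and Rps6ka1, an ERK-activated kinase on chromosome 4, at -0.25 ± 0.13. Their limma adjusted p was 0.701 and 0.660. Map2k1ip1 lies on the chromosome of Nras, and was at -0.36 in HCC 2 of mouse 3760, and -0.55 and -0.63 in HCC 1 and HCC 2 of mouse 4033, where Nras was low too. In HCC 2 of mouse 3151, where Nras was lowest, it was at -0.06, and in HCC 1 of that mouse at 0.29. Relative to the chromosome it differed by -0.05.

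**Figure D5:**
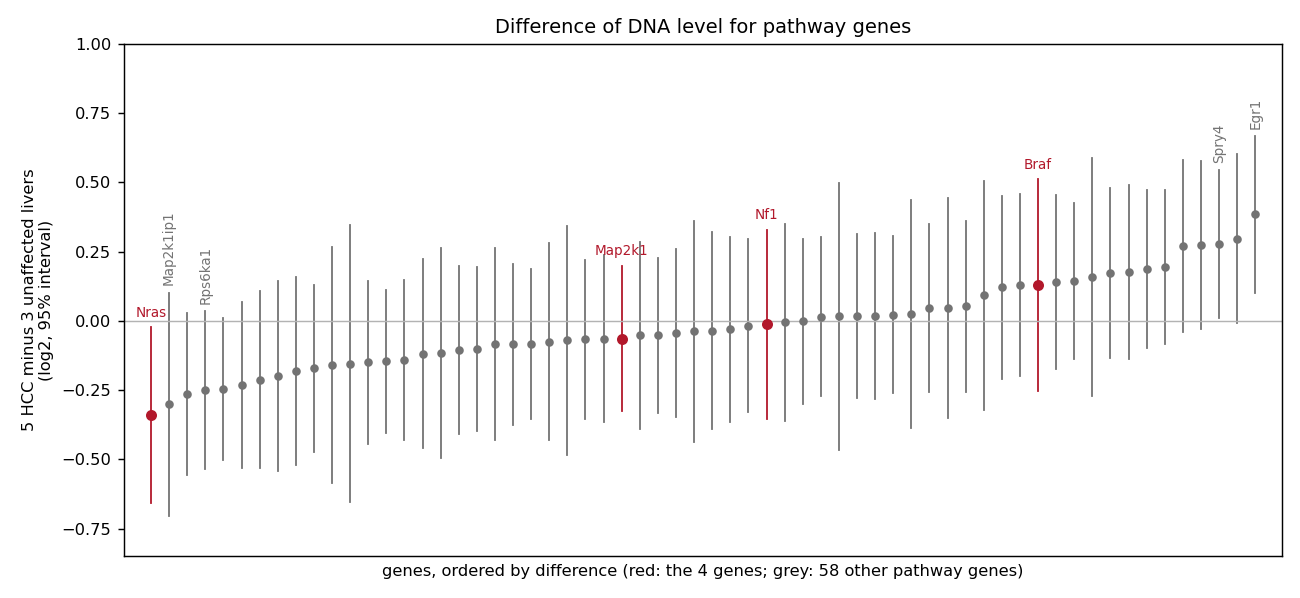
Difference of mean DNA level, 5 HCC minus 3 unaffected livers (vertical axis, log2, with 95% intervals from limma), for the 4 genes in red and 58 other autosomal pathway genes in grey, ordered by difference. Nras lies at the lower end at -0.34 and Egr1 at the upper end at 0.38, and no gene was called.

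The genes on other chromosomes whose levels ran most like each gene over the 8 tissues were found by Pearson correlation and are given as a description. For Nras they were Kif24 (r = 0.987), Ccdc106 (0.980) and Ipp (0.963). For Braf they were 1810020G14Rik (0.987) and AK050516 (0.978) on chromosome 12 and AK015408 (0.971) on chromosome 13. For Nf1 they were Cr1l (0.987), Olfr218 (0.981) and Slamf7 (0.977), all on chromosome 1. For Map2k1, whose range was the smallest and whose level includes the dim low-GC probe, they were S100a3 (0.977), OTTMUSG00000005148 (0.917) and Bhlhb5 (0.915).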

How the data were processed

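DNA of 8 tissues was hybridised on 15 arrays. The authors scanned 4 slides on 2 days, and per the file headers Feature Extraction 9.1.3.1 made background-subtracted, dye-normalised intensity values. The log10 ratios of the scanner files (LogRatio, red over green) matched the deposited value table within 5.0e-06, after a change of sign where dyes were swapped. The genome build is not given in the sources used here.

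Processed intensities were turned into log2 ratios of tissue over reference in either dye orientation. Control spots and outlier-marked spots were left out, spots of a probe averaged, arrays centred on the autosomal median with no loess, and both orientations averaged to 1 replicate. HCC 2 of mouse 3760 had 1 orientation. A gene was the mean of its probes, and names found on several chromosomes were kept apart by chromosome, which gave 19971 genes to test. The chromosome median was taken from each probe for relative levels. For local levels the mean of the 2 nearest probes on either side was taken, whatever their gene. HCC and livers were compared with limma 3.58.1 (lmFit, then eBayes, with two-sided p-values) under R 4.3.3, Benjamini-Hochberg adjusted over all autosomal genes or probes, threshold 0.05. Exact permutation tests used 56 splits, whose smallest p is 0.0179. The steps were tested on simulated data whose shifts were larger than the differences between HCC and livers reported here. Performance on differences of this size was not tested. Signal over background had medians of 3.72 to 7.95 per array and dye, and 0.191% to 2.31% of spots were not well above background.

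The genes and lists were chosen with earlier results of these data known. The text names the 4 genes with all flanking gene names, of the other pathway genes the 3 largest differences each way, and the 3 most alike genes on other chromosomes. Some genes that these rules gave are not reported here. The pairing of HCC with livers comes from the animal. After group means were removed, an HCC and the liver of its own mouse correlated at 0.126 to 0.288 over probes, and an HCC and the liver of another mouse at -0.206 to 0.0872. Tumours of the same mouse are not independent animals. Computations used Python 3.11.15, numpy 2.4.6 and pandas 2.3.3, and plots matplotlib 3.10.9.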

Additional observations from a re-analysis of the deposited data

Results flagged for a closer look

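Map2k1 relative to its chromosome was at 0.14 in HCC 2 of mouse 3760, far from the other 4 HCC by Dixon's test at the 95% level. It was the only flag in 31 sets of 5 HCC tested, and chance flags about 1 set in 20. Without the low-GC probe A_53_P149462 it was at 0.11, below the 0.17 of HCC 2 of mouse 3151, and did not stand apart.

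Map2k1 minus own liver was above 0 in both HCC of mouse 3151, at 0.12 and 0.02, and below 0 in all 3 HCC of the male mice, at -0.06, -0.15 and -0.27. The means differed by 0.23, with an exact permutation p of 0.2 over 10 splits, two-sided, and mouse, sex, age and Trp53 genotype cannot be told apart in this contrast. Without the low-GC probe A_53_P149462 the values of mouse 3151 were -0.03 and 0.19.

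Elk1, an ERK target on the X chromosome, lay outside the autosomal comparisons. Relative to the X median it differed from the liver of the same mouse by -0.96 in HCC 2 of mouse 3760, and between -0.19 and 0.04 in the other 4 HCC. Its probes in that tumour read -0.89 and -3.14, each on a single array, so the value rests on 1 probe.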

How the results depend on the processing

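Limma called none of the 4 genes, the 15 probes or the 58 other pathway genes under any alternative run, and Nras kept its direction in all of them, from -0.44 to -0.28 without each tissue in turn. With mouse as a replicate block, which uses the pairing of tissues by animal, Nras differed by -0.34 (adjusted p = 0.688) and 0 genes were called. With slide as a fixed block 1 of 19971 genes was called, not one of these, against 0. In that run both HCC of mouse 3151, alone on their slide, added nothing to the differences. The Nf1 level turned to 0.084 with scan day as a block, 0.030 on forward arrays alone, 0.020 with the replicate block and 0.13 with slide as a block, and ranged from -0.10 to 0.057 without each tissue. The Braf level turned to -0.018 with slide as a block, was 0.020 with scan day as a block and ranged from 0.047 to 0.25 without each tissue. Relative to the chromosome, Braf turned to -0.017 with scan day, -0.0013 with the replicate block and -0.0063 with slide as a block, and ranged from -0.018 to 0.045 without each tissue. Map2k1 relative to the chromosome turned to 0.025 with scan day as a block, 0.033 with slide as a block, 0.011 on forward arrays, 0.022 with the gene median and 0.0064 with the replicate block, and ranged from -0.059 to 0.034 without each tissue. Map2k1 moved most with dim spots left out, to -0.28 in level and -0.22 relative to the chromosome, and with the LogRatio column, to -0.16 and -0.11, against -0.06 and -0.0087. With outlier-marked spots kept, Nf1 was -0.073 in level and 0.057 relative to the chromosome. The cause was not tested. The 8 pairs past 0.3 became 12 with mode centring, 12 at a cut-off of 0.2 and 10 on forward arrays alone. They became 9 each with the LogRatio column, outlier-marked spots kept or dim spots left out. They became 4 with normexp, 1 at a cut-off of 0.5 and 2 relative to the chromosome. The share of all genes was counted for the last of these settings alone, at 11.5%, so the others have no background. Without each tissue the count was 5 to 7, and 5 without the liver of mouse 3151 or that of mouse 4033. Leaving out a tissue also left out its pairs, so the count could not rise. Slide and scan day as fixed blocks, the leaving out of tissues from this count and of the low-GC probe were chosen after seeing the data. Weak signal over background limits Map2k1 probe A_53_P149462.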

Other observations

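The other X-linked genes of the pathway list followed the X chromosome of their tissue more closely than Elk1 did in HCC 2 of mouse 3760. Araf, a Raf kinase with 2 probes, lay between -0.62 and 0.23 minus own liver over the 5 HCC, and between -0.08 and 0.33 once the X median was taken out. Rps6ka3, an ERK-activated kinase, lay between -0.21 and 0.16 on the latter scale, and Dusp9, an ERK phosphatase with 1 probe, between -0.15 and 0.31.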
